A study of Mus musculus with 25 samples.

Results

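The genes described here encode the neuronal cytoskeleton: the intermediate filament genes Nefl, Nefm, Nefh and Ina, the microtubule-associated protein genes Map2, Mapt, Map1a and Map1b, the microtubule regulator Stmn2 and the neuronal tubulin Tubb3. They were chosen by name as a functional group, with earlier results of these data known, and are 10 of the 21720 genes in the count table. Counts of members set beside shares of all tested genes are therefore a description, not a test of the group. All 10 passed the filter on low counts, as did 16515 genes in all. RNA of the brain cortex was measured in 25 male mice aged 6 months, 5 per group. Transgenic mice of strain B6C3 carrying APPswe and PSEN1dE9 formed 4 groups. The combination group was given both compounds, 2.5 mg/kg of each, while the vestitol group had 5 mg/kg of (-)-Vestitol and the salviolone group 5 mg/kg of Salviolone. The model control group was given vehicle, as was the wild type group, which was C57BL/6J. Injections were intraperitoneal and daily for 3 months. The study asked how gene expression in the model differs from wild type and how each treatment, and above all the combination, differs from the model control. Strain and genotype changed together between the model and wild type, so their parts cannot be told apart. In this amyloid model the transgenes are driven by the mouse Prnp promoter, so they are expressed in many brain cells from their own cassettes.

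Neurofilaments are the intermediate filaments of large and myelinated axons. The light chain (Nefl) forms the core of the filament, the medium (Nefm) and heavy (Nefh) chains add long side arms that space filaments and widen axons, and alpha-internexin (Ina) coassembles with them in the central nervous system. Microtubules run beside them: Map2 stabilises microtubules in dendrites, Mapt encodes tau, which binds microtubules mainly in axons and aggregates in Alzheimer's disease, and Map1a and Map1b bind microtubules in mature and in growing neurites. Neurofilament light chain that leaks from damaged axons is used as a blood marker of neurodegeneration; RNA levels in tissue are a different quantity.

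Positions are in mm39, the build of the files. Nefl spans chr14:68321312-68326544 and Nefm spans chr14:68320039-68362295. The Nefm span holds all 5233 bases of Nefl, and in the GENCODE vM21 annotation Nefl is on the plus strand and Nefm on the minus strand. The sources used here do not give the strand setting of the counting, so reads of this pair may have been shared, and their separate values are uncertain to that extent. Nefh lies at chr11:4888754-4898064, Ina at chr19:47003137-47013766 and Map2 at chr1:66214432-66481742. Mapt lies at chr11:104122216-104222916, Map1a at chr2:121120081-121141313 and Map1b at chr13:99557954-99653048. Stmn2 lies at chr3:8574420-8626666 and Tubb3 at chr8:124138163-124148754. Ina overlaps Nt5c2 over 456 bases and Map1a overlaps Ppip5k1 over 272 bases.

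The promoters of Ina, a member that was higher in the model, and Map2, the only called member that was lower there, are shown because they moved in opposite directions. The sequences run from 250 bases before to 50 bases after the gene's start, are from RefSeq on GRCm38.p6 and give the gene's strand. The table held 5 of the 10 members. Capitals mark the GC box GGGCGG on either strand, which also reads CCGCCC.
Ina promoter, chr19:47014431-47014730, plus strand: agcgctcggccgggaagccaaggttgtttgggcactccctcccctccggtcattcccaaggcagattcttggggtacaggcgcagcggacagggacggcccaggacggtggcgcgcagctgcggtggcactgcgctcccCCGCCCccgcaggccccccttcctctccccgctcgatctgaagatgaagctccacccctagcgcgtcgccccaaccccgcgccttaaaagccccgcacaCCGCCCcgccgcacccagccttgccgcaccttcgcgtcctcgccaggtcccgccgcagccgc
Map2 promoter, chr1:66175079-66175378, plus strand: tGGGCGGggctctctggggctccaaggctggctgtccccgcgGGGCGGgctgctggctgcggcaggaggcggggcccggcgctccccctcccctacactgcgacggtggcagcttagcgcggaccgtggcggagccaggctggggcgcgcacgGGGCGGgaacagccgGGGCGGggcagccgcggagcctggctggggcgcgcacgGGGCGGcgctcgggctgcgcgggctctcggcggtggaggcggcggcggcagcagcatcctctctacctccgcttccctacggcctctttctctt
The Map2 window holds 5 GC boxes and is 77.7% G and C. The Ina window holds 2 GC boxes and is 71.7% G and C. The GC box is found in 35.7% of the 32851 mouse promoters of this length in the table, and the TATA box TATAAA, found in 13.6% of them, is in neither window. A match describes letters only and no binding was measured here.

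The libraries held 59376320 to 109776852 counts. App, with which reads of the transgene can be counted, was 3439 to 5066 CPM (counts relative to the library total after TMM scaling) in the 20 transgenic mice, against 1383 to 1800.2 CPM in the 5 wild type mice. Prnp was 1417 to 2028 CPM in transgenic mice, against 591 to 699 CPM in wild type mice. These ranges did not overlap. All 8 excitatory cortex neuron markers were above 0 in every mouse. Wild type mouse 3 held pituitary hormone RNA, with 5316 CPM of Gh, against at most 3.07 CPM in the other 24 mice. Wild type mouse 5 held 181 CPM of Mapt, against 858 to 909 CPM in the 4 other wild type mice. Without both mice the members called between the model and wild type were the same 5 genes, and the results are given with all 25 mice unless stated. In bulk RNA, fewer cells of a type and less RNA per cell cannot be told apart.

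Levels between genes can be compared only per length, here as the authors' FPKM (counts scaled by gene length and library size). Over the 25 mice Map1b averaged 404 FPKM, Mapt 215, Stmn2 159.7, Nefl 121, Tubb3 104, Map2 97.0, Nefm 77.3, Ina 65.3 and Nefh 19.1 FPKM. Nefh was lowest of the 4 filament genes in every group by this measure. Map1a is listed at 2345 FPKM, but the length implied by its FPKM and count is 1203 bases, against 11825 bases for its longest transcript in GENCODE vM21. The implied length also departed from the longest transcript for Nefm (5827 against 3680 bases), Nefh (5946 against 3994), Map1b (5606 against 11808), Stmn2 (1555 against 3413) and Tubb3 (2848 against 1868). For Map2 (4734 against 6258) and Mapt (4137 against 5253) it departed as well. The lengths were closer for Nefl (3039 against 3380) and Ina (3303 against 3240). The order of levels therefore depends on the length used. By CPM per kilobase of the longest transcript the order was Map1a (239), Map1b (192), Mapt (169), Tubb3 (158), Nefm (122), Nefl (109), Map2 (73.3), Stmn2 (72.7), Ina (66.6) and Nefh (28.5). By this measure Nefm stood above Nefl and Tubb3 above Stmn2, the reverse of the FPKM order, and Nefh was again lowest.

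The 4 filament genes rose in the model control against wild type, and Map2 fell. Of the 10 members 5 were called by edgeR's quasi-likelihood test at an adjusted p under 0.05 (adjusted over all tested genes), where 11.6% of all tested genes were called. Of all genes, 5.37% were called higher and 6.21% lower. The median log2 fold change was 0.56 over the 4 filament genes and 0.18 over the 10 members, against -0.01 over all tested genes.

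Nefm, the medium chain, had 479.7, 593, 546, 534 and 607 CPM in the 5 model controls. In wild type it had 287, 433, 281, 251 and 352 CPM. The lowest model mouse stood above the highest wild type mouse, which was mouse 2. The log2 fold change was 0.78 ± 0.11 (SE, n = 5 each), or 1.72-fold, with an adjusted p of 0.000222 by edgeR.

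Nefl, the core chain, had 364, 426, 398, 386 and 398 CPM in model controls, against 293, 343, 291, 296 and 322 CPM in wild type. The groups did not overlap, and the fold was 1.28 (log2 fold change 0.35 ± 0.05, adjusted p 0.000198 by edgeR).
Nefh, the heavy chain, had 127, 179.9, 123, 115 and 127 CPM in model controls, against 57.3, 111, 81.8, 58.9 and 104 CPM in wild type. Every model mouse was above every wild type mouse, though the highest wild type mouse (111 CPM) came close to the lowest model mouse (115 CPM). The log2 fold change was 0.70 ± 0.18, with an adjusted p of 0.0147 by edgeR. It missed the threshold without model mouse 2 (0.58, adjusted p 0.0562), without wild type mouse 4 (0.60, adjusted p 0.0554) and in a fit to these 10 mice alone (0.70, adjusted p 0.0937).

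Ina, alpha-internexin, had 209, 253, 245, 226 and 254 CPM in model controls, against 164, 214, 166, 156 and 189.6 CPM in wild type. Here the groups overlapped, since wild type mouse 2 stood above model mouse 1. The log2 fold change was 0.41 ± 0.08 and the adjusted p 0.00218 by edgeR. Between the groups, 3 members were higher and 1 lower with no overlap, where 2.43% of all tested genes were higher and 2.13% lower with no overlap.

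Map2 had 479, 404, 439, 411 and 449 CPM in model controls, against 545, 489, 556, 584 and 511 CPM in wild type. Every model mouse was below every wild type mouse. The log2 fold change was -0.30 ± 0.07 and the adjusted p 0.00574 by edgeR.

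The other 5 members did not pass the test. Over the 25 mice Map1a ran from 2527 to 3185 CPM, Map1b from 1992 to 2494 CPM, Stmn2 from 215 to 275 CPM and Tubb3 from 245 to 340.2 CPM, and the model control and wild type ranges overlapped in each. Map1a differed by 0.05 ± 0.04 on the log2 scale (95% interval -0.03 to 0.14), Map1b by -0.08 ± 0.04 (-0.17 to 0.01) and Stmn2, which binds free tubulin, by 0.05 ± 0.06 (-0.07 to 0.17). Tubb3 differed by -0.03 ± 0.06 (-0.16 to 0.10). Mapt had 916, 896, 938, 908 and 946 CPM in model controls, against 883, 909, 858, 892 and 181 CPM in wild type. Its log2 fold change was 0.31 ± 0.24 with wild type mouse 5 (adjusted p 0.474 by edgeR), and 0.06 ± 0.04 without it (adjusted p 0.404).

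**Figure D1:**
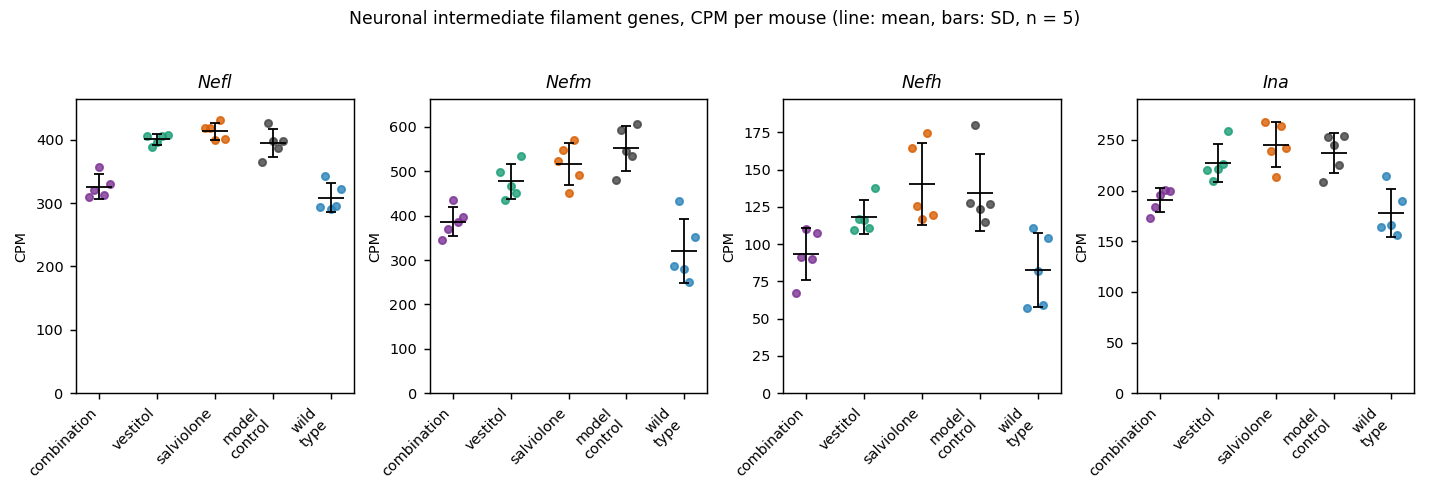
CPM of the 4 neuronal intermediate filament genes in each of the 25 mice (points), with the group mean (line) and SD (bars), groups in columns. Model control, vestitol and salviolone mice sit above wild type mice in all 4 panels by their means, and the means of the combination mice lie between those of model control and wild type mice.

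All 20 transgenic mice together, against the 5 wild type mice, gave the same 5 called members: Nefl 0.31 ± 0.04, Nefm 0.58 ± 0.09, Nefh 0.54 ± 0.15, Ina 0.33 ± 0.06 and Map2 -0.29 ± 0.05 on the log2 scale (edgeR, adjusted p 2.68e-05, 0.000182, 0.0178, 0.00126 and 0.00062 in that order), where 14.1% of all tested genes were called (6.12% higher and 8.02% lower). Mapt (0.31), Map1a (0.04), Map1b (-0.08), Stmn2 (0.04) and Tubb3 (-0.00) were not called by edgeR. Limma-voom with sample weights called Mapt (0.79, adjusted p 0.0374) and Map1b (-0.10, adjusted p 0.0316) as well, and Mapt by edgeR was 0.06 without wild type mouse 5. This comparison shares mice with every other one given here. Nefh was not called without wild type mouse 1 (0.43, adjusted p 0.0798) or mouse 4 (0.44, adjusted p 0.0913).

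In combination mice 3 of the 4 filament genes fell against the model control, and the adjusted p of the fourth, Nefh, was just above the threshold. Of the 10 members, 3 were called lower and 0 higher, where 7.13% of all tested genes were called lower and 7.83% higher (15.0% in all). All 4 filament genes were lower with no overlap between the groups, where 5.59% of all tested genes were. The median log2 fold change was -0.42 over the 4 filament genes, against 0.00 over all tested genes.

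Nefl had 310.1, 321, 357, 312 and 331 CPM with the combination. The model controls had 364 to 426 CPM, all higher. The log2 fold change was -0.27 ± 0.05, with an adjusted p of 0.000708 by edgeR.

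Nefm had 346, 369.8, 435, 385 and 397 CPM with the combination, against 479.7 to 607 CPM in model controls. It fell to 0.7 of the model control level, with a log2 fold change of -0.51 ± 0.11 and an adjusted p of 0.0024 by edgeR. Its combination mean of 387 CPM stayed above the wild type mean of 321 CPM.

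Ina had 173, 184, 195, 200.4 and 199.9 CPM with the combination, against 209 to 254 CPM in model controls. The log2 fold change was -0.32 ± 0.08 and the adjusted p 0.00817 by edgeR.

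Nefh had 67.0, 91.3, 110.4, 89.7 and 108 CPM with the combination, against 115 to 179.9 CPM in model controls. Every combination mouse was below every model mouse, yet the adjusted p was 0.0522 by edgeR at a log2 fold change of -0.53 ± 0.18. Nefh passed by DESeq2 (-0.53, adjusted p 0.0119) and limma-voom with sample weights (-0.52, 0.0420), by limma on filtered FPKM (0.0434 and 0.0417), and by edgeR with a filter of 1 CPM (0.0424), with the groups of the contrast alone (0.0449) and with counts divided by 4 (0.0442), so the call rests on the tool, the filter and the mice fitted. Without 1 mouse it passed in 1 of 10 edgeR fits, without combination mouse 3 (-0.60, adjusted p 0.0416), and the adjusted p reached 0.139 without combination mouse 1 (-0.44) and 0.165 without model mouse 2 (-0.41). Map2 was 0.12 ± 0.07 above the model control on the log2 scale (95% interval -0.02 to 0.26), which did not pass the test.

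**Figure D2:**
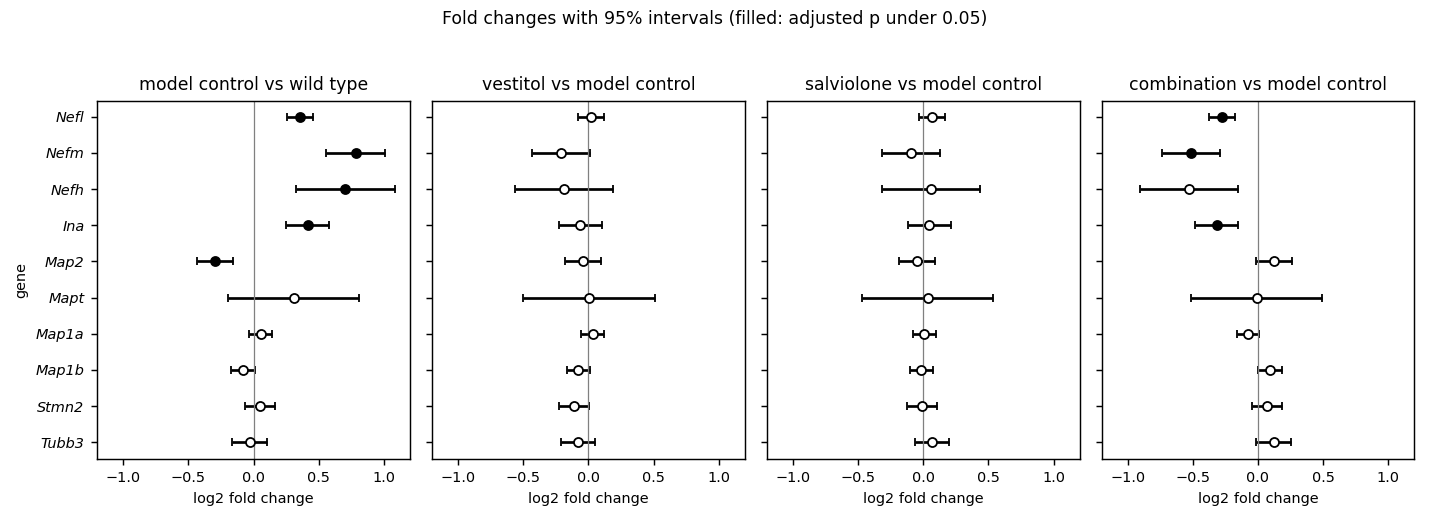
Log2 fold changes (horizontal axis) with 95% intervals for the 10 members (vertical axis) in 4 comparisons, filled where the adjusted p was under 0.05. Intermediate filament genes are to the right of 0 in the model against wild type (0.35 to 0.78) and to its left in the combination against the model (-0.53 to -0.27), while neither compound alone has a filled point.

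The comparison of the model with wild type and that of each treatment with the model share the model control mice, so their values are set side by side only. Nefm differed by 0.78 between the model and wild type, and by -0.51 between the combination and the model. For Nefl these were 0.35 and -0.27, for Nefh 0.70 and -0.53, and for Ina 0.41 and -0.32.

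Neither compound alone gave a called member against the model control. With vestitol 0 of 10 members were called by edgeR, where 0% of all tested genes were called, 0 at an unadjusted p under 0.05, and 0 by DESeq2 and by limma-voom. The smallest p belonged to Stmn2 (-0.11 ± 0.06, 95% interval -0.23 to 0.00, adjusted p 0.678 by edgeR) and to Nefm (-0.21 ± 0.11, -0.43 to 0.01, adjusted p 0.694 by edgeR). Nefm had 499, 435, 468, 452 and 535 CPM with vestitol. These values overlapped those of the model controls.

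With salviolone 0 of 10 members were called by edgeR, where 0.0242% of all tested genes were called, 0 at an unadjusted p under 0.05, and 0 by DESeq2 and by limma-voom. The smallest p belonged to Nefl, with 418, 419, 399, 430.4 and 401 CPM (log2 fold change 0.07 ± 0.05, 95% interval -0.03 to 0.17, adjusted p 0.633 by edgeR), and to Tubb3 (0.07 ± 0.06, adjusted p 0.741). The 95% intervals with salviolone were -0.32 to 0.13 for Nefm, -0.31 to 0.44 for Nefh and -0.12 to 0.21 for Ina. With vestitol they were -0.08 to 0.12 for Nefl, -0.56 to 0.19 for Nefh and -0.23 to 0.10 for Ina. What was measured with the combination lay inside the interval of Nefh with vestitol, and outside the other intervals of these 4 genes with either compound.

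At the same dose of 5 mg/kg, vestitol against salviolone gave 0 called members by edgeR, where 0.684% of all tested genes were called, and 1 at an unadjusted p under 0.05. That was Tubb3, at 263, 277, 302, 280.1 and 245 CPM with vestitol, against 308, 282, 312, 340.2 and 272 CPM with salviolone (log2 fold change -0.15 ± 0.06, 95% interval -0.28 to -0.02, adjusted p 0.351 by edgeR). Stmn2 came next (-0.10 ± 0.06, adjusted p 0.490). The groups overlapped in both genes. How many of all tested genes passed the unadjusted threshold is not given here. For the filament genes the 95% intervals were -0.15 to 0.06 for Nefl, -0.34 to 0.11 for Nefm, -0.62 to 0.13 for Nefh and -0.28 to 0.05 for Ina.

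Against the mean of both compounds alone, the combination had 7 called members, 2 higher and 5 lower, where 24.1% of all tested genes were called (12.9% higher and 11.2% lower). The compounds were each given at 5 mg/kg alone and at 2.5 mg/kg in the combination, so dose and pairing changed together. Nefl fell by 0.32 ± 0.04 on the log2 scale (adjusted p 8.47e-06 by edgeR), Nefm by 0.36 ± 0.09 (adjusted p 0.0063), Nefh by 0.47 ± 0.16 (adjusted p 0.0367) and Ina by 0.31 ± 0.07 (adjusted p 0.00171). Map1a fell by 0.10 ± 0.04 (adjusted p 0.0461). Map2 rose by 0.16 ± 0.06 (adjusted p 0.0396) and Map1b by 0.14 ± 0.04 (adjusted p 0.00804). With the mean level of hypothalamus markers as a covariate 0 members were called (Nefm -0.08), as were 0 of all 16515 genes. Without combination mouse 1 the count was 4, Map1a was not called without the low-count filter (-0.10, adjusted p 0.0530), and 3 calls were lost without single mice. Map2 was not called without any 1 of vestitol mice 2, 3 and 4, salviolone mice 1 and 2 and combination mice 1, 2 and 3 (0.11 to 0.16, adjusted p 0.0524 to 0.183). Map1a was not called without any 1 of vestitol mice 2, 4 and 5, salviolone mice 2, 3, 4 and 5 and combination mice 1, 4 and 5 (-0.10 to -0.08, adjusted p 0.0525 to 0.154). Nefh was not called without any 1 of vestitol mouse 5, salviolone mice 1 and 4 and combination mice 1, 2 and 4 (-0.46 to -0.37, adjusted p 0.0591 to 0.122).

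**Figure D3:**
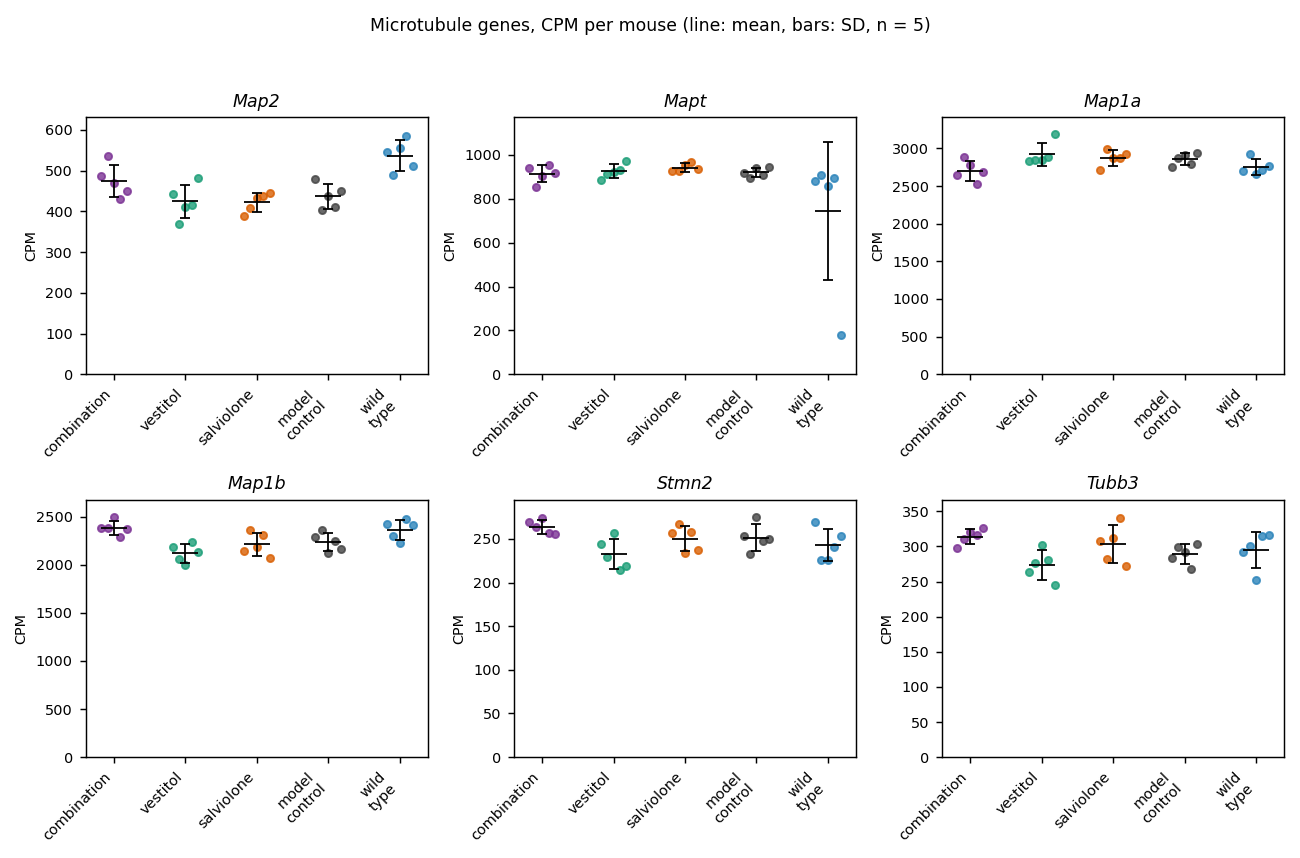
CPM of Map2, Mapt, Map1a, Map1b, Stmn2 and Tubb3 in each of the 25 mice (points), with the group mean (line) and SD (bars). Map2 is highest in wild type (mean 537 CPM), and wild type mouse 5 stands at 181 CPM of Mapt far below all other mice.

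The treated groups were also set against wild type, a comparison added after the data were seen. With vestitol 5 members were called, where 15.4% of all tested genes were (6.95% higher and 8.49% lower): Nefl 0.38, Nefm 0.57 and Ina 0.35 higher, and Map2 -0.34 and Map1b -0.16 lower on the log2 scale (edgeR, adjusted p from 3.79e-05 to 0.0152). Map1b was not called without vestitol mouse 3 (-0.13, adjusted p 0.0557) or wild type mouse 4 (-0.14, adjusted p 0.0597). With salviolone 5 members were called, where 17.8% of all tested genes were (8.32% higher and 9.45% lower): Nefl 0.42, Nefm 0.69, Nefh 0.76 and Ina 0.46 higher and Map2 -0.35 lower. With the combination 0 members were called by edgeR, where 2.23% of all tested genes were (1.19% higher and 1.04% lower). Here 3 members had an unadjusted p under 0.05, namely Nefm (0.27 ± 0.11, 95% interval 0.05 to 0.49, adjusted p 0.199), Map2 (-0.18 ± 0.07, adjusted p 0.167) and Stmn2 (0.12 ± 0.06, adjusted p 0.301). The share of all tested genes at that unadjusted threshold is not given here, so this count cannot be set against it. Without wild type mouse 2, whose 433 CPM of Nefm was the highest of its group, 1 member was called, Nefm at 0.40 (adjusted p 0.017). All 4 comparisons share the wild type mice.

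The proportions of the filament chains were compared within each mouse, as ratios of FPKM, which do not depend on library size. The level of a ratio depends on the gene lengths used, while its difference between groups does not. Nefm to Nefl was 0.687, 0.725, 0.716, 0.720 and 0.796 in model controls, against 0.511, 0.660, 0.504, 0.442 and 0.571 in wild type. The groups did not overlap. The difference of mean log2 ratios was 0.45 (exact two-sided permutation test, p 0.00794, the smallest that 5 against 5 allows, and 0.0423 adjusted over 16 tests).

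The same ratio was lower in treated mice. It was 0.582, 0.601, 0.635, 0.644 and 0.625 with the combination, a log2 difference from the model control of -0.24 (exact permutation p 0.00794, adjusted p 0.0423). With vestitol it was 0.642, 0.585, 0.616, 0.580 and 0.686 (-0.23, exact permutation p 0.00794, adjusted p 0.0423). With salviolone it was 0.653, 0.682, 0.589, 0.692 and 0.640 (-0.16, exact permutation p 0.0159, adjusted p 0.0635), which did not pass. These 4 comparisons share mice. With vestitol the ratio passed, where neither gene was called by itself. Nefm and Nefl overlap in the annotation, so reads shared in the counting could alter this ratio, which was not tested. The ratios Nefh to Nefl, Ina to Nefl and Nefh to Nefm passed in none of the 4 comparisons, with adjusted p of 0.236 or more in exact permutation tests. The Nefh to Nefl ratio differed by 0.38 between the model and wild type (exact permutation p 0.0952).

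**Figure D4:**
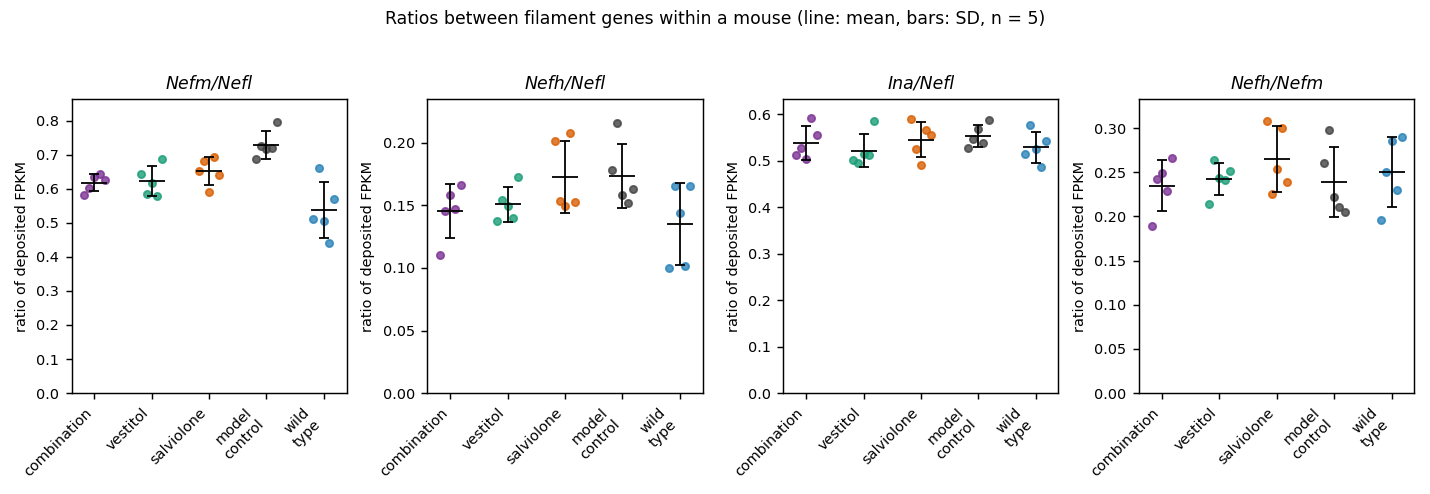
Ratio of deposited FPKM (vertical axis) between filament genes within each mouse (points), with the group mean (line) and SD (bars). Nefm to Nefl averages 0.729 in model controls, above 0.618 with the combination, 0.622 with vestitol, 0.651 with salviolone and 0.537 in wild type.

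Within groups, the 4 filament genes varied together from mouse to mouse. After subtraction of group means over 25 mice, 7 of 45 member pairs passed a permutation test of Pearson's r at an adjusted p under 0.05. They were all 6 pairs among Nefl, Nefm, Nefh and Ina, and Nefm with Map1a. Nefm and Ina were closest (Pearson r 0.89, Spearman rho 0.87, permutation p adjusted 0.000225), and Nefl with Nefm had r 0.86 and rho 0.87 (0.80 without the 2 mice farthest from the median). Nefm with Map1a had r 0.52 (adjusted permutation p 0.0499) and rho 0.52 (adjusted permutation p 0.0721), while Nefl with Map1a passed by rank only (rho 0.57, adjusted permutation p 0.0332, and r 0.50, adjusted permutation p 0.0685). Nefl and Nefm overlap in the annotation, and all of these genes share their library. The share of pairs of other genes that would pass is not given here, so the count of 7 cannot be read as particular to the members.

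Among 10491 genes compared over the 25 mice, those most like the mean log2 CPM of Nefl, Nefm and Nefh included Vamp1 (r 0.92), Pvalb (0.92), Plcb4 (0.91) and Cplx1 (0.88). Vamp1 and Cplx1 act in vesicle release and Pvalb encodes the calcium buffer parvalbumin of fast-spiking interneurons. Those most like Map2 were Larp1 (0.80), Aagab (0.74), Pex10 (0.71), Palmd (0.71) and Mok (0.69). These values describe likeness with group means removed.

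Some lists of markers of other cells and of neighbouring regions moved between the same groups as the filament genes, and others did not. Of all tested genes 5.37% were called higher and 6.21% lower in the model against wild type. In the combination against the model 7.83% were higher and 7.13% lower. Of 8 thalamus markers 0 were called in either comparison. Of 8 microglia markers 4 were higher in the model, and 0 were called in the combination. Of 12 other neuronal markers 2 were higher and 2 lower in each. Of the 12 hypothalamus markers, 8 were called higher and 0 lower in the combination against the model, and 0 higher and 5 lower in the model against wild type. Their summed level ran from 449.6 to 743 CPM with the combination, from 87.2 to 289.8 CPM in model controls and from 115 to 663 CPM in wild type. It ran from 84.6 to 155 CPM with vestitol and from 92.2 to 104 CPM with salviolone. Avp, Oxt, Hcrt, Pmch and Gal were at 0 in at least 1 model control. Hap1 and Zcchc12, which led the list, averaged 204.7 ± 21.9 and 159 ± 26.9 CPM with the combination, against 66.4 ± 30.4 and 43.5 ± 23.2 CPM in model controls.

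Of the 7 parvalbumin interneuron markers, 1 was called higher and 5 lower in the combination against the model, and 2 higher and 0 lower in the model against wild type. Their summed level ran from 607 to 749.7 CPM with the combination, from 795 to 949 CPM in model controls and from 569.96 to 813 CPM in wild type, with none at 0. Pvalb itself averaged 43.7 ± 9.92 CPM with the combination, against 77.5 ± 14.1 CPM in model controls. Of the 8 excitatory neuron markers, 0 were called higher and 5 lower in the combination against the model, and 4 higher and 0 lower in the model against wild type. Their summed level ran from 4153 to 5201 CPM with the combination and from 5227 to 6727 CPM in model controls. Of the 11 striatum markers 9 were called higher in the combination, with sums of 1819 to 2531 CPM, against 1201 to 1579 CPM in model controls. In the model against wild type 0 of the 11 were called. Of 7 oligodendrocyte markers 0 were called in the model against wild type or in the combination against the model. They moved with the filament genes elsewhere, with 3 higher in all transgenic mice, 3 higher with vestitol and 4 higher with salviolone, each against wild type, and 3 lower in the combination against the mean of both compounds, with none called the other way. Of all tested genes 6.12%, 6.95% and 8.32% were higher in these comparisons with wild type, in that order. Against the mean of both compounds 11.2% were lower. Their summed level ran from 2634 to 3581 CPM with the combination, from 3569 to 4156 CPM with vestitol, from 3408 to 4610.4 CPM with salviolone, from 2231 to 4088 CPM in model controls and from 2263 to 3581 CPM in wild type.

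Fits with these list scores as covariates called far fewer genes of any kind, so a lost call by itself is not particular to the members. In several of these fits the fold changes of members were smaller as well, so they are given beside the calls. With the hypothalamus score 257 of the 16515 tested genes were called in the model against wild type, among them Nefl (0.30), Nefm (0.65) and Ina (0.35). Nefh (0.71) and Map2 (-0.28) were not called, at log2 fold changes close to those without the score. In the combination against the model 0 of all genes were called, with Nefl at -0.18, Nefm at -0.24, Nefh at -0.54 and Ina at -0.20.

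With the excitatory score 207 genes were called in the model against wild type, among them Nefl (0.29) and Nefm (0.60), while Nefh (0.67), Ina (0.33) and Map2 (-0.29) were not. In the combination against the model 0 of all genes were called, with Nefl at -0.18, Nefm at -0.21, Nefh at -0.47 and Ina at -0.18. With the parvalbumin score 20 and 304 genes were called in these 2 comparisons, and 0 members in either. Here Nefl stood at 0.22 and -0.17, Nefm at 0.46 and -0.25, and Nefh at 0.21 and -0.13. Ina stood at 0.21 and -0.16, and Map2 at -0.16 in the model against wild type. Without the score Nefh was at 0.70 and -0.53, Ina at 0.41 and -0.32, and Map2 at -0.30 in the model against wild type. In the combination against the model the SE of Nefh was 0.16 with the score and 0.18 without, so its estimate shrank without a larger SE. The scores moved with the groups, and the part of tissue composition in the filament results cannot be told apart from the treatment or the genotype.

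**Figure D5:**
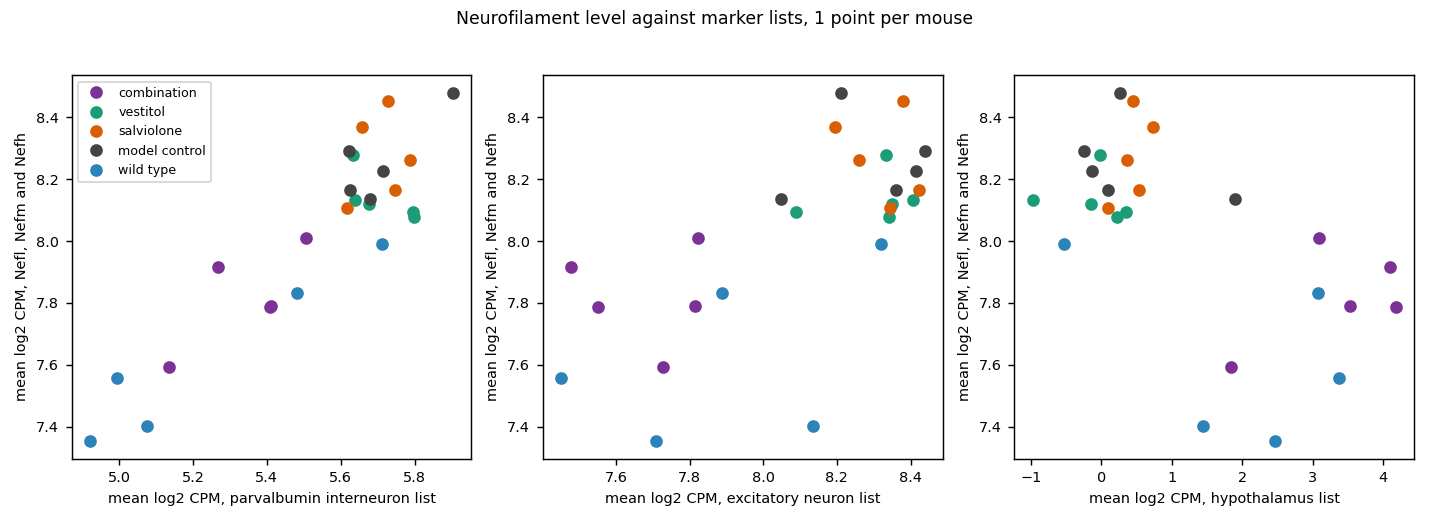
Mean log2 CPM of Nefl, Nefm and Nefh (vertical axis) against the mean log2 CPM of parvalbumin interneuron, excitatory neuron and hypothalamus markers (horizontal axes), 1 point per mouse, coloured by group. Combination mice have hypothalamus scores from 1.84 to 4.19 and neurofilament scores from 7.59 to 8.01, while model controls have hypothalamus scores from -0.25 to 1.89 and neurofilament scores from 8.14 to 8.48.

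Within groups the neurofilament score was related to the parvalbumin list (Pearson r 0.76, adjusted permutation p 0.0363, Spearman rho 0.61, adjusted permutation p 0.0791, over 25 mice and 15 lists), with r 0.60 without wild type mice 2 and 4. It was the only list to pass by r, and none passed by rho. Oligodendrocyte markers had an equal rank correlation (rho 0.62, adjusted permutation p 0.0791, and r 0.55, adjusted permutation p 0.0705, with r 0.62 without the 2 farthest mice). Thalamus (r 0.49, adjusted permutation p 0.0705), upper layer (r -0.49, adjusted permutation p 0.0730) and layer 5 projection markers (r -0.42, adjusted permutation p 0.0705) also missed the threshold. The relation to the hypothalamus list was r -0.18 (adjusted permutation p 0.860). Wild type mouse 2 joined the highest Nefl, Nefm, Nefh and Ina of its group to the lowest hypothalamus score of its group (-0.53, against 1.45 to 3.37 in the other wild type mice). Combination mouse 1 went the other way. It joined the lowest Nefl, Nefm, Nefh and Ina of its group to the lowest hypothalamus score of its group (1.84, against 3.09 to 4.19 in the other combination mice).

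The wider cytoskeleton gave both directions. List counts are to be read beside 5.37% higher and 6.21% lower of all tested genes in the model against wild type, and 7.83% higher and 7.13% lower in the combination against the model. Of the 12 other tubulins, 1 was called higher and 3 lower in the model against wild type: Tuba8 by 0.77 ± 0.13 on the log2 scale, and Tubb2a by -0.44 ± 0.09, Tubb2b by -0.34 ± 0.09 and Tuba1a by -0.21 ± 0.07. Against the model, the combination had 4 higher and 1 lower, with Tubb2a at 0.45 ± 0.09 and Tuba8 at -0.72 ± 0.13. Tubb2a and Tubb2b are near-identical copies, and reads between them may be split by the counting.

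Growth cone genes and collapsin response mediators, which act in neurite outgrowth, showed 0 higher and 5 lower of 10 in the model against wild type, with a median log2 fold change of -0.40. Marcksl1 fell by 1.43 ± 0.24, Gap43 by 0.63 ± 0.14, Dpysl4 by 0.42 ± 0.09 and Crmp1 by 0.38 ± 0.06. In the combination against the model 7 were higher and 1 lower, with a median of 0.42: Marcksl1 rose by 1.05 ± 0.24, Dpysl5 by 0.87 ± 0.13, Gap43 by 0.77 ± 0.14 and Dpysl3 by 0.40 ± 0.09. Wild type mouse 2 had the lowest score of its group for this list (5.79, against 6.34 to 6.43) and for hypothalamus. Model control mouse 1 had the highest of its group for both (6.08, against 5.68 to 5.74, for this list). Combination mouse 1, lowest of its group for hypothalamus, was not lowest here (6.31, against 6.25 to 6.41). Whether tissue composition had a part in this list was not tested.

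Of the 21 other microtubule-associated genes, 2 were higher in the model against wild type (Map6d1 0.43 ± 0.10 and Map7d2 0.18 ± 0.06), and 2 were lower in the combination against the model (Map6d1 -0.30 ± 0.10 and Dclk1 -0.25 ± 0.07), counts close to what the shares over all tested genes give for a list of this size. Of the 18 tubulin-modifying and severing genes, 1 was higher (Ttl 0.35 ± 0.07) and 2 lower (Hdac6 -0.28 ± 0.07 and Atat1 -0.19 ± 0.05) in the model, while the combination had Hdac6 higher (0.21 ± 0.07) and Ttl (-0.27 ± 0.07) and Agtpbp1 (-0.30 ± 0.07) lower, again near the shares over all tested genes (11.6% and 15.0% called in either direction). Of the 15 axonal transport motors, Kif5b (0.29 ± 0.06), Kif5c (0.18 ± 0.05) and Klc2 (0.39 ± 0.13) were higher in the model and Kif5c lower (-0.22 ± 0.05) with the combination, the last being 1 of 15, near the share of all tested genes. Among spectrin and ankyrin genes Ank1 (0.62 ± 0.13) and Epb41l3 (0.24 ± 0.07) were higher of 13 in the model. Peripherin (Prph), the filament of peripheral and some central neurons, averaged 0.512 ± 0.274 CPM in model controls, against 1.34 ± 0.498 CPM in wild type (log2 fold change -1.39 ± 0.45), and 1.34 ± 0.551 CPM with the combination. With either compound alone, 0 genes of these lists were called against the model control. Each gene named as higher or lower had an adjusted p under 0.05 by edgeR.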

How the data were processed

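Brain cortex RNA of 25 mice was sequenced. Per the submitters' processing notes, reads were trimmed with Trim Galore and aligned with STAR to mm39. No counting tool, annotation or strand setting is stated in these notes. Deposited by the authors were raw counts per gene and FPKM, both for these 25 samples. The length that FPKM and counts imply varied between mice by a median coefficient of variation of 0.180%. Multiples of 4 made up 44.3% of the counts between 4 and 39 (25% by chance). An alternative therefore used counts divided by 4.

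Genes were filtered with edgeR's filterByExpr (minimum count 10), which left 16515 genes. TMM factors were 0.98 to 1.04. One fit over all 25 mice with 1 coefficient per group used edgeR 4.0.16 in R 4.3.3 and its robust quasi-likelihood test, two-sided, with Benjamini-Hochberg adjustment over all tested genes in each comparison. DESeq2 1.42.0 and limma 3.58.1 were alternatives. Ratios and correlations used exact permutation tests or 100000 resamples with scipy 1.17.1. List scores are means of log2 CPM with a prior count of 2. The depth of 59376320 to 109776852 counts puts the upper limit for a count of 0 (3 counts) at 0.0273 to 0.0505 CPM, which covers counting error only. The fit was tested on simulated data.

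The members and gene lists were chosen with earlier results of these data known. All 10 members are named with values against wild type, and in other comparisons those called or, with none called, the 2 with the smallest p. From each other cytoskeleton list, up to 4 called genes with the smallest p are named. Genes like a member are the 5 with the largest correlation within groups (mean log2 CPM of at least 3). Some genes that these rules name are not reported here.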

Additional observations from a re-analysis of the deposited data

Results flagged for a closer look

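In 4 of 50 groups of 5 mice, 1 mouse stood far from the other 4 of its group, judged by its gap to the nearest mouse as a share of the range. Chance gives about 1 in 20. Mapt was 180.6 CPM in wild type mouse 5. Nefh was 179.9 CPM in model control mouse 2 and 137.7 CPM in vestitol mouse 5. Map1a was 3185 CPM in vestitol mouse 5.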

How the results depend on the processing

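For the counts of members called (5 in the model against wild type, 3 in the combination against the model), covariates chosen for tissue composition gave the largest shifts, and the cause was not tested. In the model against wild type the count was 3 with the hypothalamus score, 2 with the excitatory score, 0 with the parvalbumin score and 3 with hypothalamus and striatum scores; in the combination against the model it was 0 with each of these. For vestitol against wild type these counts were 1, 2, 0 and 1, and for the combination against the mean of both compounds 0, 0, 1 and 0. With the parvalbumin score it was 1 for transgenic mice and 1 for salviolone, each against wild type. At an unadjusted p under 0.05 it was 5 for the combination against the model, 1 for vestitol against salviolone and 3 for the combination against wild type. The shares of all tested genes at this unadjusted threshold are not given here, and those in the covariate fits only where stated above. Counts without such a share cannot be read as particular to the members. Leaving out 1 mouse gave 4 to 8 for the combination against the mean of both (4 without combination mouse 1) and 0 to 1 for the combination against wild type (1 without wild type mouse 2). Of the ratio tests 3 passed, and 0 to 3 without 1 mouse, where 4 against 5 mice cannot give an exact permutation p below 0.0159. Directions reversed only among uncalled members: Map1a in the model against wild type (-0.0058 with the excitatory and -0.0036 with the parvalbumin score), Stmn2 there (-0.0045, excitatory), Map1a in all transgenic mice (-0.0020, parvalbumin) and Tubb3 in all transgenic mice (-0.0550 to 0.0220 over the fits without 1 mouse). The covariate scores other than hypothalamus, the leave-out of wild type mice 3 and 5, and comparisons of treated mice with wild type were chosen after seeing the data. Same-numbered mice did not deviate together (median correlation -0.006 over 50 pairs); with the replicate number as a block the counts of members called were 5 in the model against wild type and 3 in the combination against the model.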
